A study of Homo sapiens with 12 samples.

Results

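Mitochondrial ribosomal proteins are made from nuclear genes, translated in the cytosol and imported into mitochondria, where they assemble with the rRNAs of the mitochondrial genome into the large and the small subunit of the mitoribosome. The mitoribosome translates the messengers of that genome, which code for core subunits of the respiratory chain and of ATP synthase. Leukemic cells of the myeloid lineage are known to lean on mitochondrial respiration, and mitochondrial protein synthesis is needed to maintain it. Part of the proteins have a counterpart in the bacterial ribosome, and others were added to the mitoribosome during the evolution of mitochondria. Their genes were taken from the count table as every symbol made of MRPL or MRPS, a number and, where present, a letter from A to C. This gave 77 genes among the 26481 with a count in every sample, lying on 21 chromosomes. By the present naming of the mitoribosome, 50 code for proteins of the large subunit, MRPS30 and MRPS18A among them in spite of their symbols, and 26 for proteins of the small subunit. The last, MRPS36, is no longer counted as a ribosomal protein and is a subunit of the 2-oxoglutarate dehydrogenase complex. By the same naming, 30 of the large-subunit and 16 of the small-subunit proteins have a bacterial counterpart, and the other 20 and 10 are specific to mitochondria.

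The 12 RNA libraries came from HEL, an established human erythroleukemia line used as a model of acute myeloid leukemia, whose cells carried a library of genetic barcodes in all groups. Cells labelled NT (n = 2) had received DMSO only, with the same 72 to 74 h of exposure and about 30 d of culture as the other groups. The other groups were populations that had regrown over about 30 d after 72 to 74 h of drug exposure, to 1.8 µM doxorubicin (Doxo, n = 3), to doxorubicin with 6 µM cytarabine (Doxo+Cyta, n = 3) or to both of these drugs and 0.1 µM decitabine, which lowers DNA methylation (Doxo+Cyta+DAC, n = 4). All came from 1 cell line, so the p-values measure the spread between cultures of that line, and a regrown population consists of the cells that survived and expanded.

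Library totals ran from 12763582 to 19106235 counts. Levels are given as CPM, which are counts scaled to a common library size by each library's total over the tested genes and its TMM factor, and the limit that a count of 0 allows (3 counts) lay between 0.154 and 0.238 CPM, for counting error only. Of the erythroid and megakaryocytic genes expected of HEL cells, GATA1 lay between 171.9 and 421 CPM and ITGA2B between 857.1 and 1713 CPM, but the platelet gene PF4 reached at most 0.14 CPM, while the T cell marker CD3E reached at most 0.158 CPM and the myeloid markers MPO and ELANE were at or near 0. The myeloid genes CD33 (107.9 to 154 CPM) and SPI1 (34.6 to 78.2 CPM) were expressed in every library. So was PDGFRB, taken as a fibroblast marker, with 5.94 to 50.6 CPM. Replicate 20 of Doxo+Cyta stood apart. In tested genes rich in GC, its log2 median was 0.35 above the NT mean, against -0.18 to 0.07 in the other 11 libraries. Over all tested genes with less than 1 kb of exon, its median was 0.48 above the NT mean on the log2 scale, against -0.07 to 0.09 in the other 11 libraries, and the mitochondrial ribosomal protein genes were 0.40 above the mean of the other two Doxo+Cyta libraries. Exons of these genes are short, with a median of 1325 bases over the 76 tested ones against 3083 for all tested genes. Counts, medians and the changes of the leading genes that rest on Doxo+Cyta are therefore also given without this library.

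Mitochondrial ribosomal protein genes were well expressed in all groups. Their median level over all samples was 37.2 CPM per kb of exon, against 7.01 CPM per kb for all tested genes, and their quartiles were 21.9 and 51.7 CPM per kb. Large-subunit genes had a median of 41.2 CPM per kb and small-subunit genes 31.8 CPM per kb. MRPL37, a mitochondria-specific protein of the large subunit, had the highest level with 200.7 CPM per kb, followed by MRPL51, also of the large subunit, with 138.9 CPM per kb and MRPS15, a protein of the small subunit with a bacterial counterpart, with 98.4 CPM per kb. MRPL19 and MRPS36 were the lowest per kb of the 76 genes that passed the filter on low counts, with 8.03 and 9.75 CPM per kb. MRPL19 has 7827 exon bases, and its mean level without scaling to length was 62.8 CPM, against 13.0 CPM for MRPS36 with 1329 bases.

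MRPS24 was the only one of the 77 genes that the filter removed. Its counts were 5 and 2 in NT, 1, 3 and 4 in Doxo, 4, 2 and 0 in Doxo+Cyta and 9, 4, 9 and 2 in Doxo+Cyta+DAC. These counts overlapped between all groups and were at 9 or fewer in every library. In the annotation used for counting, 87.07% of its exon bases were shared with the read-through gene URGCP-MRPS24, which had 0 counts in all 12 libraries. Reads in exons of 2 genes were left unassigned by the counting, so these counts cannot be read as the level of MRPS24. Of the other genes, 13 shared some exon bases with a neighbour, with MRPS18C (60.22%), MRPL43 (25.2%), MRPS6 (22.53%) and MRPL20 (20.6%) sharing most.

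As a whole, the genes took up more of the RNA in the relapses that had received decitabine. Their share of all counts was 0.426% and 0.398% in NT, 0.378%, 0.342% and 0.353% in Doxo, and 0.378%, 0.445% and 0.378% in Doxo+Cyta. It was 0.556%, 0.532%, 0.523% and 0.503% in Doxo+Cyta+DAC, above every other library. Bulk RNA cannot tell a change in all cells from a change in the share of cells with high levels. The medians over the 76 genes, relative to the NT mean on the log2 scale, were 0.49, 0.50, 0.47 and 0.40 in the 4 Doxo+Cyta+DAC libraries. Doxo libraries had medians of -0.04, -0.14 and -0.07. Doxo+Cyta libraries had -0.09 and -0.12 in replicates 19 and 22 and 0.28 in replicate 20, the library with high short and GC-rich genes. Between 65 and 71 of the 76 genes were above the NT mean in each Doxo+Cyta+DAC library, against 24 to 32 in the Doxo libraries and 28, 66 and 29 in the Doxo+Cyta libraries. Of the NT libraries themselves, replicate 1 had 67 genes above that mean and replicate 2 had 9. This count therefore does not separate the decitabine relapses from NT replicate 1. The share of all tested genes above the NT mean is not given. The spread between replicates was small, with a median coefficient of variation of 8.05% in Doxo and 7.78% in Doxo+Cyta+DAC, against 14.1% and 12% for all tested genes. In Doxo+Cyta it was 18.4%, against 17.2% for all tested genes.

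**Figure D1:**
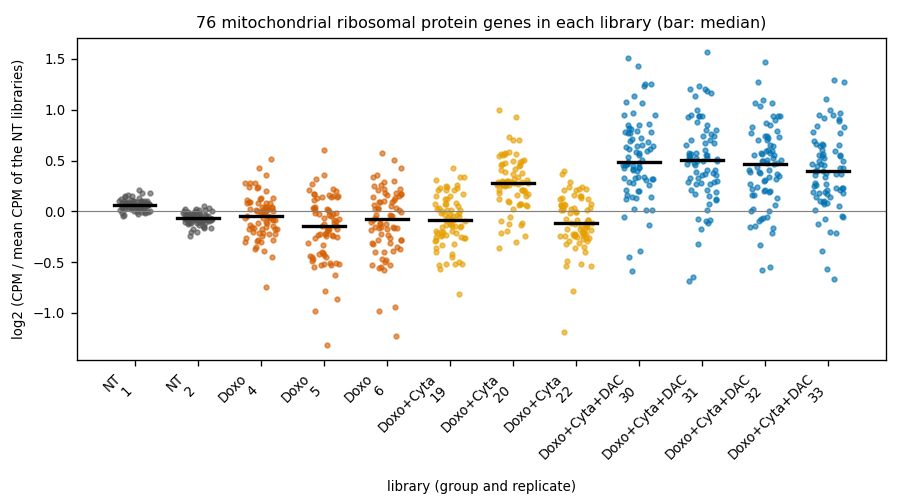
Each point is 1 of the 76 tested mitochondrial ribosomal protein genes in 1 library, plotted as the log2 ratio of its CPM to the mean CPM of the NT libraries (vertical axis) for the 12 libraries by group and replicate (horizontal axis), and the black bar is the median. The 4 Doxo+Cyta+DAC medians lie between 0.40 and 0.50, above all other medians, of which that of Doxo+Cyta replicate 20 is the highest at 0.28.

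The first question was how the regrown Doxo+Cyta+DAC population differed from untreated cells. Relative to NT, 43 of the 76 genes were higher and 3 lower at an adjusted p under 0.05 by edgeR's quasi-likelihood test with Benjamini-Hochberg adjustment over 14164 genes. Of all tested genes, 24.9% were higher and 23.7% lower. The median log2 fold change was 0.45 over the mitochondrial ribosomal protein genes and 0.02 over all tested genes. Higher genes had log2 fold changes from 0.30 to 1.46, and 7 of them passed 2-fold: MRPL1, MRPL20, MRPS7, MRPS12, MRPL12, MRPL15 and MRPS28. The share of all tested genes that passed 2-fold is not given, so this count has no background beside it. All 4 Doxo+Cyta+DAC libraries were above both NT libraries for 58 genes and below both for 4 (MRPL10, MRPL17, MRPS30 and, with no call, MRPS31), where 34.2% and 32.9% of all tested genes did so. With only 2 NT libraries the count was sensitive to each of them, which gave 29 higher and 1 lower without NT replicate 1 and 22 higher and 2 lower without NT replicate 2.

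Relative to Doxo, 51 of the 76 genes were higher and 4 lower, with 29.1% of all tested genes higher and 30.4% lower. The median log2 fold change was 0.52, against -0.01 over all tested genes, and without Doxo replicate 6 the lower genes numbered 2. Relative to Doxo+Cyta, 44 were higher and 3 lower, with 29.8% and 30.5% of all tested genes, and the median was 0.42 against 0.00. Without Doxo+Cyta replicate 20, which had the highest level of that group for 65 of the 76 genes and for 45.3% of all tested genes, 53 were higher and 3 lower and the median was 0.53. The 9 genes that gained a call were MRPL14, MRPL23, MRPL33, MRPL41, MRPL43, MRPL52, MRPS6, MRPS14 and MRPS18C, and no call was lost. All 4 Doxo+Cyta+DAC libraries were above all Doxo libraries for 58 genes and below them for 4, where 29.7% and 30.2% of all tested genes did so, and above all Doxo+Cyta libraries for 38 and below them for 4, where 29% and 28.2% did. These comparisons share the Doxo+Cyta+DAC libraries, so they are not independent of each other. Side by side, 37 genes were higher in all 3, 11 in exactly 2 and 5 in exactly 1, while 3 genes (MRPL10, MRPL17 and MRPS30) were lower in all 3 and 1 gene (MRPL44) lower in 1. The shares of all tested genes with such joint calls are not given. Those called in all 3 cannot exceed the shares relative to NT, 24.9% higher and 23.7% lower. The 5 genes higher in exactly 1, named after their values were seen, were MRPL23, MRPS5, MRPS14, MRPS18C and MRPS33. The remaining 19 were called in none, among them MRPL2, MRPL9, MRPL16, MRPL22, MRPL51, MRPS6, MRPS22 and MRPS31. In 38 genes all 4 Doxo+Cyta+DAC libraries were above all 8 others, and in 3 genes below, where 21.5% and 20.1% of all tested genes were.

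**Figure D2:**
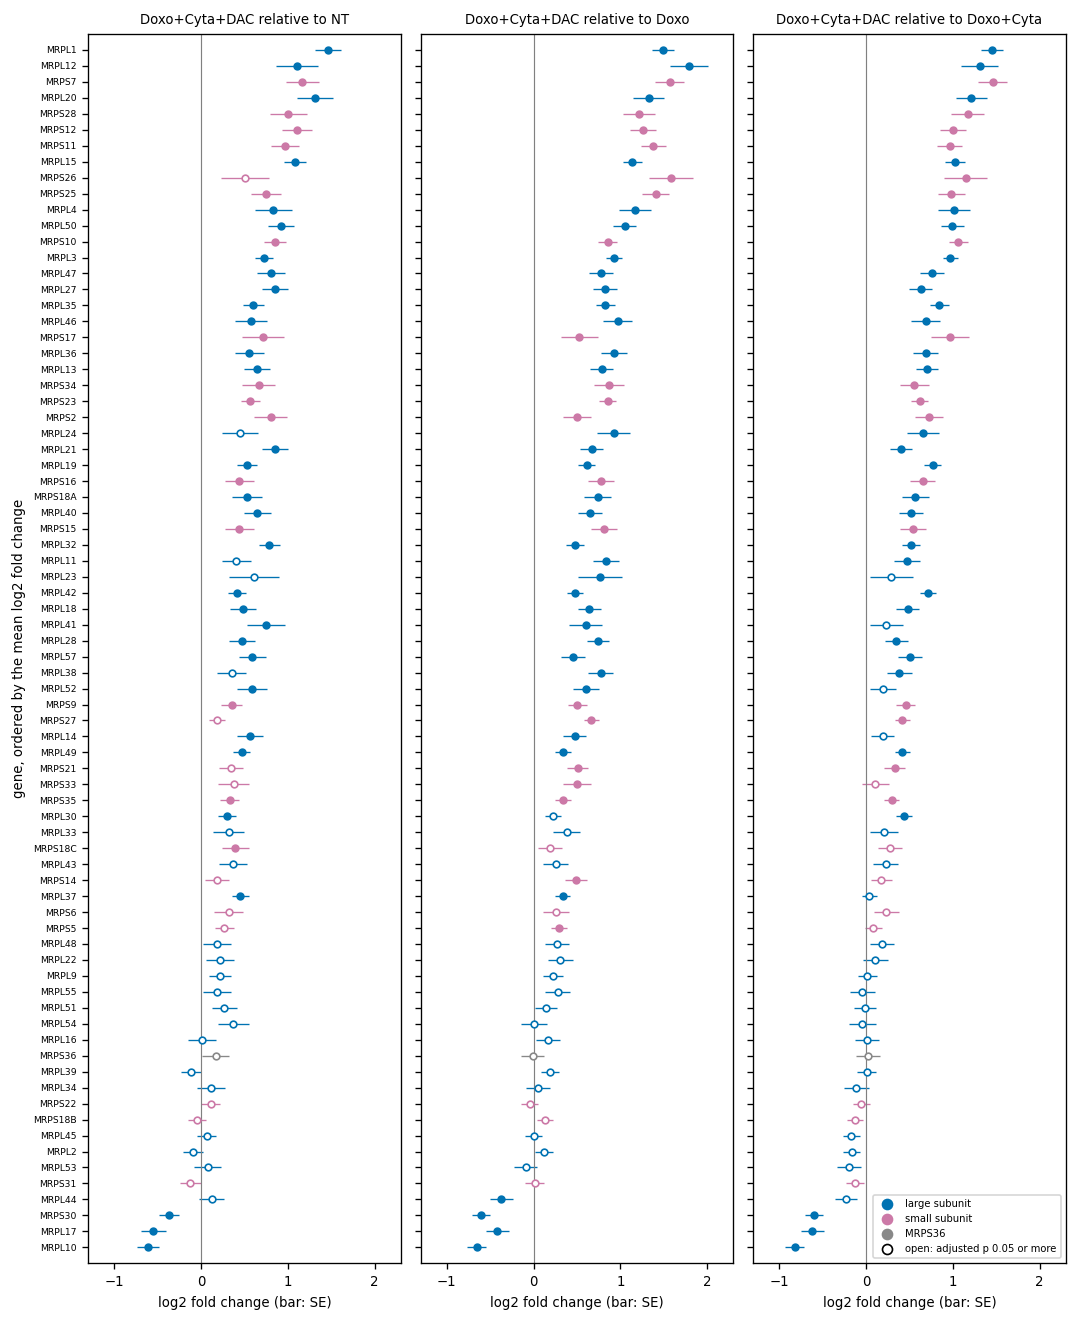
Log2 fold changes (horizontal axes) of the 76 tested genes (vertical axis, ordered by their mean) in Doxo+Cyta+DAC relative to NT, Doxo and Doxo+Cyta, with bars for the standard error, filled points for an adjusted p under 0.05 and colours for the subunit. Most genes lie to the right of 0 in all 3 panels, MRPL1 and MRPL12 at the top, and MRPL10, MRPL17 and MRPS30 lie to the left in each.

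Both subunits held higher genes. In the large subunit, 28 of 50 genes were higher and 3 lower relative to NT, 31 and 4 relative to Doxo, and 27 and 3 relative to Doxo+Cyta, with medians of 0.47, 0.54 and 0.39. Among the 25 tested small-subunit genes, 15, 20 and 17 were higher and 0 were lower in the 3 comparisons, with medians of 0.44, 0.53 and 0.54. Without Doxo+Cyta replicate 20 the last comparison gave 33 higher and 3 lower with a median of 0.52 in the large subunit and 20 higher and 0 lower with a median of 0.68 in the small. None of the small-subunit genes had an unadjusted p under 0.05 in the lower direction in the 3 comparisons. All 4 genes with a lower call therefore code for large-subunit proteins, but the difference between the subunits was not tested. Genes with a bacterial counterpart had medians of 0.53, 0.67 and 0.52, with 29, 33 and 30 of 45 higher and 2 lower in each. Mitochondria-specific genes had medians of 0.37, 0.40 and 0.23, with 14, 18 and 14 of 30 higher and 1, 2 and 1 lower, and this difference was not tested either. Without replicate 20 the last medians were 0.72, with 36 higher and 2 lower, and 0.39, with 17 higher and 1 lower. The 63 genes that share no exon with another gene had 33, 42 and 35 higher and 3, 4 and 3 lower calls, the last 41 and 3 without replicate 20.

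MRPL1 had the largest increase relative to NT. It is the protein of the mobile stalk beside the exit site of the large subunit. Its levels were 14.2 and 12.5 CPM in NT, 13.2, 11.4 and 14.6 CPM in Doxo, 13.0, 14.0 and 13.3 CPM in Doxo+Cyta and 38.0, 39.5, 36.8 and 32.2 CPM in Doxo+Cyta+DAC. The first 3 groups overlapped with each other, and every Doxo+Cyta+DAC library lay apart from them. The log2 fold change was 1.46 (SE 0.15, adjusted p = 7.55e-06) relative to NT, 1.49 (SE 0.13, adjusted p = 8.83e-07) relative to Doxo and 1.45 (SE 0.13, adjusted p = 6.87e-07) relative to Doxo+Cyta, or 1.48 without replicate 20. In linear terms the level was 36.6 ± 3.13 CPM (SD, n = 4) against 13.3 ± 1.16 CPM (SD, n = 2) in NT, a fitted 2.75-fold difference.

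MRPL12 forms the flexible stalk of the large subunit that recruits translation factors, and it is also known to bind the mitochondrial RNA polymerase. It had 74.5 and 68.7 CPM in NT, 61.4, 36.3 and 36.3 CPM in Doxo, 49.6, 86.8 and 49.99 CPM in Doxo+Cyta and 170.4, 157.2, 150.3 and 137.9 CPM in Doxo+Cyta+DAC. The Doxo+Cyta+DAC libraries were above all others, and replicate 20 was the high one of Doxo+Cyta. Relative to NT the log2 fold change was 1.10 (SE 0.25, adjusted p = 0.00232), relative to Doxo 1.79 (SE 0.22, adjusted p = 1.34e-05), the largest of the 76 genes, and relative to Doxo+Cyta 1.31 (SE 0.22, adjusted p = 1.35e-04), or 1.63 without replicate 20. MRPL10 anchors MRPL12 on the ribosome and moved the other way. Its levels were 112.7 and 110.0 CPM in NT, 90.6, 125.4 and 128.9 CPM in Doxo, 131.5, 126.9 and 128.7 CPM in Doxo+Cyta and 74.2, 71.0, 76.2 and 69.9 CPM in Doxo+Cyta+DAC. All 4 decitabine relapses were below all 8 other libraries. It fell by 0.61 (SE 0.13, adjusted p = 0.00139), 0.66 (SE 0.11, adjusted p = 2.17e-04) and 0.82 (SE 0.11, adjusted p = 2.90e-05) on the log2 scale relative to NT, Doxo and Doxo+Cyta, the last by 0.84 without replicate 20.

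Among the small-subunit genes MRPS7 rose most relative to NT and to Doxo+Cyta. Its product is a primary rRNA-binding protein of the head of the subunit. The levels were 55.9 and 53.2 CPM in NT, 51.8, 35.3 and 36.9 CPM in Doxo, 38.2, 58.2 and 37.5 CPM in Doxo+Cyta and 130.0, 126.0, 116.4 and 117.4 CPM in Doxo+Cyta+DAC. Again the decitabine relapses were above all other libraries, while both NT libraries were above those of Doxo and within the range of Doxo+Cyta. Log2 fold changes were 1.17 (SE 0.19, adjusted p = 2.68e-04), 1.57 (SE 0.17, adjusted p = 4.52e-06) and 1.46 (SE 0.17, adjusted p = 6.30e-06) relative to NT, Doxo and Doxo+Cyta, the last 1.69 without replicate 20. MRPS12, the decoding-centre protein of the small subunit, had 41.9 and 39.0 CPM in NT and 95.5, 93.5, 84.5 and 75.9 CPM in Doxo+Cyta+DAC, with 32.1 to 40.8 CPM in Doxo and 36.4 to 55.4 CPM in Doxo+Cyta. It rose by 1.11, 1.26 and 1.00 on the log2 scale in the 3 comparisons, the last 1.20 without replicate 20. MRPS28, also of the small subunit, had 17.0 to 22.1 CPM in NT and 37.3 to 43.7 CPM in Doxo+Cyta+DAC and rose by 1.01, 1.21 and 1.17, the last 1.43 without replicate 20.

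MRPL20, an rRNA-binding protein of the large subunit, had 43.5 and 44.7 CPM in NT, 52.2, 39.8 and 38.9 CPM in Doxo, 36.1, 65.2 and 40.8 CPM in Doxo+Cyta and 119.3, 103.9, 106.9 and 108.0 CPM in Doxo+Cyta+DAC. Its levels overlapped between the first 3 groups and were higher in each decitabine relapse, with log2 fold changes of 1.31, 1.33 and 1.21, the last 1.51 without replicate 20. MRPL37, the gene with the highest level per kb, had 253.8 and 231.5 CPM in NT, 256.0 to 268.9 CPM in Doxo, 306.2 to 342.4 CPM in Doxo+Cyta and 307.7 to 343.8 CPM in Doxo+Cyta+DAC, and was called relative to NT (log2 fold change 0.45, adjusted p = 0.00164) and Doxo (0.33) but not relative to Doxo+Cyta (0.04, SE 0.08, and 0.08 without replicate 20), with which it overlapped. MRPL51 was called in none of the 3 comparisons, with log2 fold changes of 0.27 (SE 0.15), 0.14 (SE 0.13) and -0.02 (SE 0.13), the last 0.15 without replicate 20. MRPS15 was higher in each, by 0.44, 0.81 and 0.54, the last 0.78 without replicate 20. MRPL19, low per kb, was higher by 0.53, 0.61 and 0.77. MRPS36 was called in none, with log2 fold changes of 0.17, -0.01 and 0.02.

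MRPL17 and MRPS30 were the other genes that were lower in all 3 comparisons. MRPL17, a large-subunit protein with a bacterial counterpart, had 73.8 and 68.4 CPM in NT, 60.7, 63.2 and 70.6 CPM in Doxo, 59.2, 86.9 and 77.6 CPM in Doxo+Cyta and 54.4, 44.2, 47.5 and 47.9 CPM in Doxo+Cyta+DAC. Every decitabine relapse was below every other library, the closest pair being 54.4 and 59.2 CPM. It fell by 0.55 (adjusted p = 0.00602), 0.42 (adjusted p = 0.0123) and 0.62 (adjusted p = 8.75e-04) relative to NT, Doxo and Doxo+Cyta, the last by 0.50 without replicate 20. Without NT replicate 1 the first of these was -0.50 with an adjusted p of 0.0667, and without Doxo replicate 6 the second was -0.35 with an adjusted p of 0.0643. MRPS30, a mitochondria-specific protein of the large subunit, had 87.6 and 82.8 CPM in NT, 86.5, 99.3 and 114.2 CPM in Doxo, 102.1, 96.5 and 100.6 CPM in Doxo+Cyta and 62.4, 68.2, 67.6 and 65.02 CPM in Doxo+Cyta+DAC. It too did not overlap with the other groups and fell by 0.37 (adjusted p = 0.0153), 0.60 (adjusted p = 1.76e-04) and 0.60 (adjusted p = 1.71e-04), the last by 0.63 without Doxo+Cyta replicate 20. Without NT replicate 1 the change relative to NT was -0.33 with an adjusted p of 0.123, and without NT replicate 2 it was -0.41 with an adjusted p of 0.0588. MRPL44, a large-subunit protein with a ribonuclease III-like fold, was lower only relative to Doxo (log2 fold change -0.37, adjusted p = 0.0228). That call was lost without Doxo replicate 5 (-0.31, adjusted p = 0.103), Doxo replicate 6 (-0.33, adjusted p = 0.0872) or Doxo+Cyta+DAC replicate 31 (-0.30, adjusted p = 0.0651).

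**Figure D3:**
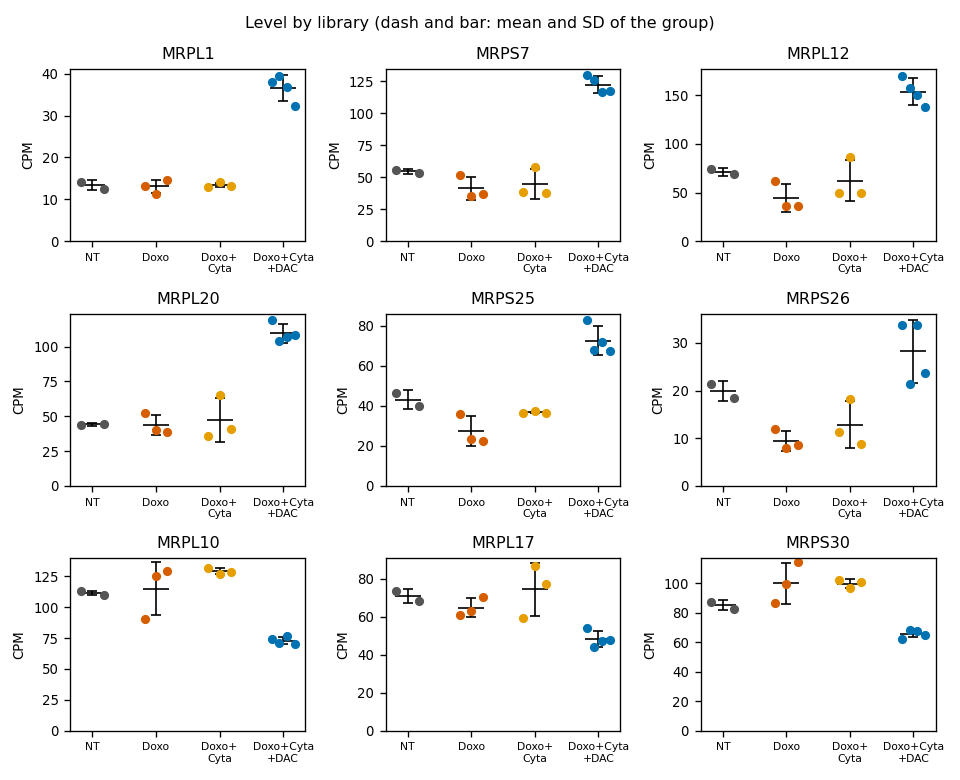
Levels in CPM (vertical axes, starting at 0) of 9 genes in the libraries of the 4 groups (horizontal axes), with a point for each library and a dash and bar for the mean and SD of the group. In MRPL1, MRPS7, MRPL12, MRPL20 and MRPS25 the 4 Doxo+Cyta+DAC points lie above all others, in MRPL10, MRPL17 and MRPS30 below, and in MRPS26 they lie between 21.5 and 33.9 CPM, all above the NT points of 18.4 and 21.4 CPM.

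The 3 proteins that share the MRPS18 name, which go back to 1 bacterial protein and occupy different places in the mitoribosome, had unlike values. By their present names MRPS18A and MRPS18B are counted here as mitochondria-specific, in spite of that origin. MRPS18A, placed in the large subunit, had 31.6 and 31.8 CPM in NT and 44.6 to 47.2 CPM in Doxo+Cyta+DAC. It was higher by 0.53 (adjusted p = 0.0214), 0.74 (adjusted p = 9.66e-04) and 0.57 (adjusted p = 0.00536) relative to NT, Doxo and Doxo+Cyta, or 0.74 in the last without replicate 20. The first call was lost without NT replicate 1 (0.52, adjusted p = 0.118) or replicate 2 (0.53, adjusted p = 0.11), with upper-quartile scaling (0.45, adjusted p = 0.0576) and with library totals alone (0.43, adjusted p = 0.0586). MRPS18B had 99.2 and 86.7 CPM in NT and 85.2 to 93.7 CPM in Doxo+Cyta+DAC and was not called, with log2 fold changes of -0.05 (SE 0.10), 0.14 (SE 0.09) and -0.13 (SE 0.09). MRPS18C, the one at the bacterial position, had 11.6 to 12.8 CPM in NT and 14.1 to 17.5 CPM in Doxo+Cyta+DAC. MRPS18C shares 60.22% of its exon bases with a neighbouring gene, where reads were left unassigned, so its level may be too low. Its call relative to NT (0.40, adjusted p = 0.0498) was lost in 15 of 20 alternative fits, and the other comparisons gave 0.19 and 0.28 with no call, the last 0.37 with a call (adjusted p = 0.036) without Doxo+Cyta replicate 20. The difference between the 3 genes was not tested.

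In the relapses without decitabine few of the genes differed from untreated cells. Doxo relative to NT gave 0 higher and 3 lower genes of 76, where 6.06% of all tested genes were higher and 4.63% lower, and the median log2 fold change was -0.09 (-0.01 without NT replicate 1). At an unadjusted p under 0.05 there were 13 of the 76 genes, in either direction, against 4011 of the 14164 tested genes. All 3 lower genes code for mitochondria-specific proteins of the small subunit. MRPS26 had 21.4 and 18.4 CPM in NT and 11.9, 8.0 and 8.5 CPM in Doxo, and fell by 1.08 on the log2 scale (SE 0.29, adjusted p = 0.0296). MRPS25 had 46.3 and 39.8 CPM in NT and 36.0, 23.6 and 22.3 CPM in Doxo, and fell by 0.66 (SE 0.18, adjusted p = 0.0316). MRPS27, a protein with pentatricopeptide repeats, had 103.4 and 100.7 CPM in NT and 74.6, 71.4 and 73.1 CPM in Doxo, and fell by 0.48 (SE 0.10, adjusted p = 0.0106). For each of them both NT libraries were above all Doxo libraries, which held for 25 of the 76 genes and for 24.5% of all tested genes, while 7 genes were above both NT libraries in all Doxo libraries, compared with 24.6%. None of these calls held without NT replicate 1 or without NT replicate 2, where the count of lower genes was 0, while the log2 fold changes were -0.97 and -1.18 for MRPS26, -0.55 and -0.77 for MRPS25 and -0.47 and -0.50 for MRPS27. The count was 1 without Doxo replicate 5 or 6, 8 without Doxo replicate 4 and 10 without Doxo+Cyta replicate 20, the last pair also with 1 higher gene each. In Doxo+Cyta+DAC all libraries were above both NT libraries for the 3 genes. MRPS25 had 82.9, 67.6, 71.7 and 67.6 CPM there and was higher than NT by 0.75 (adjusted p = 0.00299), a call that was lost without NT replicate 2 (0.64, adjusted p = 0.0529). MRPS26 was not called relative to NT (0.51, adjusted p = 0.141) but rose by 1.58 relative to Doxo and 1.15 relative to Doxo+Cyta (1.49 without replicate 20), and MRPS27 gave 0.18 with no call, 0.67 and 0.42.

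Doxo+Cyta relative to NT gave 0 higher and 0 lower genes by edgeR's quasi-likelihood test, with 12 at an unadjusted p under 0.05, and by DESeq2 1 higher (MRPL37). Of all tested genes, 0.911% were higher and 0.551% lower, and 2888 of 14164 had an unadjusted p under 0.05. The median log2 fold change was 0.05, and -0.14 without replicate 20, and without Doxo replicate 4, which enters the shared estimate of the spread, MRPL37 was called higher. All Doxo+Cyta libraries were above both NT libraries for 15 genes and below both for 9, where 21.4% and 19.2% of all tested genes were. Doxo relative to Doxo+Cyta gave 0 and 0 as well, with 14 genes at an unadjusted p under 0.05, by DESeq2 1 lower (MRPL37), and with 2.32% of all tested genes higher and 1.07% lower. Over all 14164 tested genes, 2673 had an unadjusted p under 0.05 in this comparison. The median was -0.16, and -0.03 without Doxo+Cyta replicate 20. Without Doxo replicate 4, MRPL12, MRPL28 and MRPS25 were called lower, and without Doxo+Cyta replicate 20 MRPS17 was called higher. All Doxo libraries were above all Doxo+Cyta libraries for 2 genes and below them for 14, where 10.4% and 10.6% of all tested genes were.

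The promoters of the genes at both ends of the range are shown because NRF1, ETS factors and YY1 are the factors best known for regulating nuclear genes of mitochondrial proteins. The sequences are the 250 bases before the annotated start, from RefSeq (GRCh38.p14), 5′ to 3′ on the strand of the gene, in lower case, with matches to the NRF1 motif in capitals. MRPL1, MRPS7 and MRPL12 were among the 5 most increased genes in all 3 comparisons, and MRPL17 and MRPS30 were lower in all 3. MRPL10 had no entry. The annotation used for counting has other starts. There MRPL1, MRPS7, MRPL17 and MRPS30 start inside the windows shown, at 77862651, 75261668, 6683401 and 44808925. By that annotation part of these windows is transcribed.
MRPL1 (chr4:77862580-77862829, plus strand): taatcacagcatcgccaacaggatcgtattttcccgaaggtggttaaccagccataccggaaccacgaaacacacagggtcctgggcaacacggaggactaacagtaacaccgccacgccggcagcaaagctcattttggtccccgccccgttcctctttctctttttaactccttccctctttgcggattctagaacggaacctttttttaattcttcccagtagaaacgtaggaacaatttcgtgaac
MRPS7 (chr17:75261629-75261878, plus strand): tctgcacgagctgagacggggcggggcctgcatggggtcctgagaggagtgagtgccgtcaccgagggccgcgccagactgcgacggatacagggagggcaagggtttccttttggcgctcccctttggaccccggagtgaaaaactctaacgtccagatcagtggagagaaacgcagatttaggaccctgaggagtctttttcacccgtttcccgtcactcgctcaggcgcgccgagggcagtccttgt
MRPL12 (chr17:81703117-81703366, plus strand): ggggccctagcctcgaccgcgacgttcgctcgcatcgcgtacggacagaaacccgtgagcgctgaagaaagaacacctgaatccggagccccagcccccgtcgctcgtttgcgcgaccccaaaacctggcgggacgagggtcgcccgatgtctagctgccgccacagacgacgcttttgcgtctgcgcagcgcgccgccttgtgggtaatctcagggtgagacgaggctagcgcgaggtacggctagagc
MRPL17 (chr11:6683341-6683590, minus strand): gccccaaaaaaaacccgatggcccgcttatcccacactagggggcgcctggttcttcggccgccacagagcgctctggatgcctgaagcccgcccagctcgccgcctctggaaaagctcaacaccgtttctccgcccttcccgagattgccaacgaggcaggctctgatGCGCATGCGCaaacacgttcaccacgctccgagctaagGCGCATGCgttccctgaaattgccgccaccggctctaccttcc
MRPS30 (chr5:44808697-44808946, plus strand): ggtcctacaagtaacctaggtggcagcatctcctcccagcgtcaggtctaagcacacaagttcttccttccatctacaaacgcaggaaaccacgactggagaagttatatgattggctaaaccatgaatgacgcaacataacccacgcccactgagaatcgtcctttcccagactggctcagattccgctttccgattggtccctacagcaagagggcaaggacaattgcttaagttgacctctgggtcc

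In MRPL17 the NRF1 motif matched at -81, -79 and -43 from the RefSeq start, the first 2 matches overlapping as a palindrome. MRPS7 and MRPS30, which moved in opposite directions, each had a YY1 match after the start, at 19 and 13 bases. Motifs were searched as letters on both strands of the 250 bases before and 50 bases after the start, for the 71 tested genes with an entry. AAGATGGC (YY1) was present in 19 of the 71 promoters (26.8%), against 5.33% of the promoters of 10934 tested genes. CCGGAAG (ETS) was present in 28 (39.4%), against 18.7%. GCATGCGC (NRF1) was present in 6 (8.45%) against 5.48%, CACGTG (E-box) in 8 (11.3%) against 10%, and GGGCGG (GC box) in 42 (59.2%) against 68.4%. Among the 34 searched genes that were higher in all 3 comparisons, YY1 letters were present in 11, ETS letters in 12 and NRF1 letters in 1, and among the other 37 in 8, 16 and 5. A match of letters is a description of the window and does not show that a factor binds there.

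Of the 77 genes, 26 (33.8%) had the start of an opposite-strand gene near their own, compared with 17.2% of all tested genes. Near means within 1000 bases upstream or at most 200 bases downstream. MRPL46 and MRPS11, of the large and the small subunit, are such a pair with starts 51 bases apart on chromosome 15. Both were higher in the decitabine relapses. MRPL46 had 23.9 and 21.5 CPM in NT and 29.3 to 37.1 CPM in Doxo+Cyta+DAC, and MRPS11 had 23.3 and 20.7 CPM in NT and 41.6 to 46.0 CPM in Doxo+Cyta+DAC. Log2 fold changes relative to NT, Doxo and Doxo+Cyta were 0.57, 0.97 and 0.69 for MRPL46 and 0.97, 1.38 and 0.96 for MRPS11, all called, and without replicate 20 the last were 0.91 and 1.16. There were 23 tested neighbours that are not themselves mitochondrial ribosomal protein genes. Of these, 9 were higher and 7 lower relative to NT, and 12 and 7 relative to Doxo. Relative to Doxo+Cyta 11 were higher and 7 lower (12 and 8 without replicate 20). The shares over all tested genes were 24.9%, 29.1% and 29.8% higher and 23.7%, 30.4% and 30.5% lower. Neighbours could differ in direction: MRPL27 was higher by 0.85 relative to NT, while EME1, a subunit of a DNA endonuclease whose start lies 19 bases away, fell by 1.36, and MRPL21 was higher by 0.85 while IGHMBP2, a helicase gene 16 bases away, fell by 0.57. MRPL43 (0.37, not called) lies 17 bases from C10orf2, the gene of the mitochondrial DNA helicase Twinkle, which rose by 1.55.

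Genes for other steps of mitochondrial gene expression were taken as lists for comparison. Shares over all tested genes are the background of each list. Relative to NT, Doxo and Doxo+Cyta they were 24.9%, 29.1% and 29.8% higher and 23.7%, 30.4% and 30.5% lower. Of 28 genes for mitoribosome assembly and rRNA modification, 15 were higher and 3 lower relative to NT, 19 and 2 relative to Doxo, and 19 and 3 relative to Doxo+Cyta. TRUB2, a pseudouridine synthase of mitochondrial RNA, rose by 1.30, 1.72 and 1.61 on the log2 scale. METTL15, a methyltransferase of the small-subunit rRNA, fell by 0.85, 0.75 and 0.68, and the GTPase gene NOA1 by 0.59, 0.77 and 0.78. The third lower gene relative to NT and to Doxo+Cyta was TFB1M (-0.66 and -0.50), which codes for another methyltransferase of that rRNA. Of 16 translation factor genes, 8, 10 and 9 were higher and 2, 1 and 1 lower. The elongation factor genes TSFM (1.03, 1.24 and 1.27) and GFM1 (0.92, 1.18 and 1.37) rose, and the initiation factor gene MTIF3 fell by 0.56, 0.75 and 0.72. The other initiation factor gene, MTIF2, was lower relative to NT (-0.36). Of 20 genes for mitochondrial tRNA synthetases and related enzymes, 8, 17 and 12 were higher and 0, 1 and 1 lower in the 3 comparisons. The lower calls were RARS2 relative to Doxo (-0.39) and HARS2 relative to Doxo+Cyta (-0.29).

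Of 15 genes for transcription and replication of mitochondrial DNA and for RNA processing, 10, 14 and 14 were higher. The transcription factor gene TFB2M rose by 1.38, 1.02 and 1.48 and PNPT1, for a mitochondrial exoribonuclease, by 1.11, 2.07 and 1.79. POLG2, for the accessory subunit of the DNA polymerase, was the 1 lower gene, and fell by 0.89, 0.40 and 0.63. Of 7 other proteins found in the mitoribosome, 3, 6 and 3 were higher, with AURKAIP1 at 0.77, 0.53 and 0.40. Beside it, CHCHD1 (0.51) and GADD45GIP1 (0.50) were higher relative to NT, and DAP3 (0.38) and PTCD3 (0.53) relative to Doxo+Cyta. LACTB, listed there for a former ribosomal name and known as a mitochondrial filament-forming protein, was the 1 lower gene, and fell by 1.02, 0.97 and 1.12. Of 8 tested activators of mitochondrial biogenesis, 5, 7 and 6 were higher and 0 lower, and none had a negative log2 fold change. PPRC1 rose by 1.33, 0.83 and 1.72, PPARGC1B by 1.04, 1.62 and 1.64 and MYC by 0.85, 1.08 and 1.42. GABPB1, a subunit of an ETS factor, rose by 0.78, 0.57 and 0.80 and NRF1 by 0.52, 0.49 and 0.62. Among the other activators, YY1 was called in none of the 3 comparisons (0.22, 0.02 and 0.30). GABPA was not called relative to NT (0.40) but was relative to Doxo (0.42) and Doxo+Cyta (0.80). ESRRA was called only relative to Doxo (0.34, 0.57 and 0.34, the last 0.55 with a call without replicate 20). Without Doxo+Cyta replicate 20 the last of the 3 comparisons gave 20 higher and 3 lower genes for assembly and rRNA modification, 9 and 2 for translation factors, 12 and 1 for tRNA synthetases, 14 and 1 for transcription, replication and RNA processing, 4 and 1 for the other mitoribosome proteins and 7 and 0 for the activators. Genes of the mitochondrial genome itself, whose messengers the mitoribosome translates, were not analysed here.

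Proteins of the cytosolic ribosome, a separate set of 77 nuclear genes, gave other values. In Doxo+Cyta+DAC 1 was higher and 3 lower relative to NT, 1 and 45 relative to Doxo and 1 and 64 relative to Doxo+Cyta, with median log2 fold changes of -0.13, -0.34 and -0.49. Without Doxo+Cyta replicate 20 the last were 2 higher (RPS10 and RPL35), 54 lower and a median of -0.30. The 1 higher gene was RPS10 in each, at 2.36, 2.35 and 2.44. The 3 lower relative to NT were RPL36A (-0.52), RPS2 (-0.29) and RPS25 (-0.42). Over all tested genes 24.9%, 29.1% and 29.8% were higher and 23.7%, 30.4% and 30.5% lower in the same comparisons. The difference between the cytosolic and the mitochondrial genes was not tested. In Doxo relative to NT the cytosolic median was 0.24, with 2 higher (RPL10 and RPL11) and 1 lower (RPL36A). Of the 20 mitochondrial tRNA synthetase genes, 0 were higher and 7 lower there. Lower calls also fell on 4 of 28 genes for assembly and rRNA modification and 3 of 15 for transcription, replication and RNA processing. They fell on 2 of 7 other mitoribosome proteins and 1 of 16 translation factors. All tested genes had 6.06% higher and 4.63% lower. Fits without single NT libraries are not given for these lists.

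**Figure D4:**
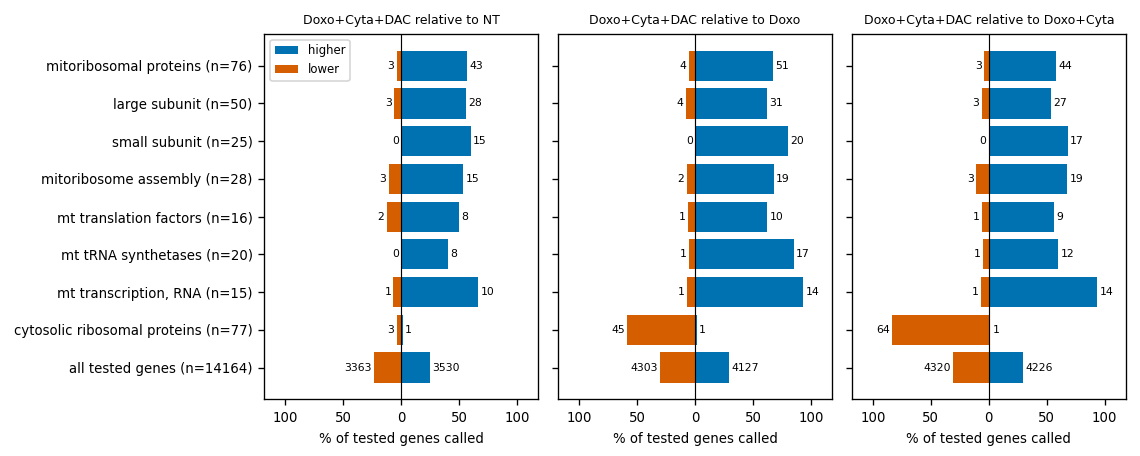
Percentage of the tested genes of each list called higher (blue, to the right of 0) or lower (orange, to the left) in Doxo+Cyta+DAC relative to NT, Doxo and Doxo+Cyta (horizontal axes), with the number of genes called beside each bar and the lists on the vertical axis. The mitochondrial lists have more higher than lower genes in each panel, while the cytosolic ribosomal proteins have 1 higher gene and 3, 45 and 64 lower ones.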

How the data were processed

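Total RNA of 12 HEL samples was sequenced by the authors as paired-end reads from TruSeq libraries, which do not mark strand. Per the file headers, the deposited values are raw counts per gene from featureCounts 1.6.0, without strand and on GRCh38, with reads in exons of more than 1 gene left unassigned. The submitters' processing notes also name FastQC, Bowtie2 2.2.8 and DESeq2. Rows with a missing count (4 of 26485) were dropped. Groups came from the sample titles, which name no batch.

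Genes passing filterByExpr of edgeR 4.0.16 in R 4.3.3 (minimum count 10; 14164 genes) were fitted over all 12 samples by quasi-likelihood after TMM scaling, with Benjamini-Hochberg adjustment over all of them and calls at an adjusted p under 0.05. The fit was tested on simulated data. CPM were computed with TMM factors, and log2 levels with a prior count of 2. Alternatives were DESeq2 1.42.0 and others given below, the offsets for GC content and exon length being added after seeing the data. The members and lists were chosen with earlier results of these data known. Most members were named by rule. For the decitabine relapses these were the 5 called with the largest log2 fold change per direction and comparison, and in the other comparisons 3. The 3 highest and 3 lowest per kb and those filtered out were added. So were the MRPS18 genes, MRPL12, MRPS36 and genes called in opposite directions relative to 1 group. A rule of at most 2 genes per direction from each list was set but not kept. Genes of the lists, MRPL15, MRPL46, MRPS11, the promoter neighbours, genes called in none and others in short counts were named after their values were seen. Promoters came from RefSeq, and 71 of the 76 tested genes matched. Protein sequences were not used here. Values of some list and marker genes are not reported here.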

Additional observations from a re-analysis of the deposited data

Results flagged for a closer look

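In the 4 Doxo+Cyta+DAC libraries, for 23 measures (named genes and the share of all counts), the highest or lowest library was compared with the rest by Dixon's test, which flags about 1 in 20 by chance, and 2 stood out. MRPS28 had 43.74 CPM in replicate 31, against 37.31, 37.77 and 38.22 CPM in the other libraries. MRPL19 had 79.14 CPM in replicate 30, against 83.62, 84.05 and 84.22 CPM. Both genes were above all NT and Doxo libraries in all 4 replicates.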

How the results depend on the processing

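No paired analysis was possible because the groups share no replicate numbers. Leaving out 1 library at a time gave 22 to 50 higher and 1 to 3 lower genes and medians of 0.41 to 0.52 for Doxo+Cyta+DAC relative to NT. Relative to Doxo it gave 44 to 57, 2 to 4 and 0.51 to 0.60, and relative to Doxo+Cyta 37 to 53, 3 to 3 and 0.36 to 0.53. For Doxo relative to NT it gave 0 to 1, 0 to 10 and -0.16 to -0.01, for Doxo+Cyta relative to NT 0 to 1, 0 to 0 and -0.14 to 0.11, and for Doxo relative to Doxo+Cyta 0 to 1, 0 to 3 and -0.24 to -0.03. Where 1 NT library was left, it was assumed to vary like the other groups. Requiring a 2-fold change and an adjusted p under 0.01 left 7, 12 and 10 higher and 0, 0 and 0 lower genes for Doxo+Cyta+DAC relative to NT, Doxo and Doxo+Cyta, and 0 lower in Doxo relative to NT. Shares of all tested genes at this threshold are not given, so these counts do not show whether the genes stand out there. With upper-quartile scaling the median for Doxo+Cyta+DAC relative to NT was 0.36, and 6 genes were lower relative to Doxo+Cyta, with the median of all genes moved by -0.084 and -0.088. With library totals alone it was 0.35 and 7 genes were lower in Doxo relative to NT, with a median of -0.21. That scaling moved the median of all genes by -0.12 in Doxo and -0.10 in Doxo+Cyta+DAC relative to NT. With offsets for GC content and exon length the medians for Doxo+Cyta+DAC relative to Doxo and Doxo+Cyta were 0.60 and 0.58, Doxo relative to NT had 1 higher and 12 lower genes, Doxo+Cyta relative to NT 1 lower, and Doxo relative to Doxo+Cyta 1 higher. Relative to NT, DESeq2 called 1 gene higher in Doxo (MRPL44) and 1 higher in Doxo+Cyta, and relative to Doxo+Cyta it called 1 lower in Doxo. MRPS18B changed sign without NT replicate 1 (0.05, adjusted p = 0.822, relative to NT) and was 0.00 with the offsets (adjusted p = 0.964, relative to Doxo+Cyta). Of 780 values of single genes under these settings, 738 kept direction and side of the threshold, 38 lost and 2 gained a call and 2 reversed. Causes were not tested.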
